A study of Zostera marina with 23 samples.

Results

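The 200 genes described here stood high in the female flower of eelgrass, Zostera marina, and low in its male flower, root and leaf. They were chosen from 22733 gene identifiers by their measured levels. For each gene outside the identifiers that begin ZosmaC or ZosmaM, the median of log2(value + 1) was taken in male flower (n = 7), root (n = 4), leaf (n = 6) and all 6 female flower libraries. The widest gap between neighbouring medians then divided the 4 tissues into high and low ones. A gene qualified when female flower alone lay above the gap, with a female median of at least 6, a gap of at least 2, and medians of the late and the early female libraries within 2 of each other, all in log2. Of 403 genes that qualified, the 200 with the widest gap were kept and are called the members. Their height in female flower against the other tissues is therefore the choice itself, and it is given below as a description without a test.

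Shoots taken from the sea in winter were kept in tanks. To bring on flowering, water temperature was raised stepwise, starting at 5 °C and ending at 15 °C, and daily light grew longer, starting at 12 hours and ending at 16 hours. Every group shared this treatment. Messenger RNA was sequenced from late female flower (n = 2), early female flower (n = 3), male flower, root and leaf. A female library titled early but with a tissue label of late, called the library of conflicting labels, entered the choice of members on the late side and none of the tests. The labels do not say that replicates came from separate plants, so the spread behind the p-values is that between samples and may be technical. Replicates carry the numbers of the titles, which begin at 0.

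Eelgrass is a flowering plant that lives and is pollinated under seawater. Its male and female flowers sit side by side on the same inflorescence, enclosed by a leaf-like sheath, the spathe. The female flower is a pistil, whose stigma catches thread-like pollen carried by the water and whose ovary holds the ovule that becomes the seed. In whole tissue, fewer cells of a type and less RNA per cell cannot be told apart. The files pair the identifiers with no names or functions, so the members are given by identifier and no role is stated for any of them.

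Depth was 5696800 to 13679082 fragments per library. Values are called scaled fragments, since each deposited value is a number of fragments times a factor of its library. Several libraries lay apart in genes chosen by the same rule, without its stage condition, for other tissues (the top 200 each). Leaf-alone genes held 2.22% of the signal in leaf replicate 1, 4.28% in leaf replicate 4 and 9.33% to 10.7% in the other 4 leaf libraries, while root replicate 2 held 0.917% against 0.116% to 0.294% in the other roots. Root-alone genes held 0.326% and 0.520% in leaf replicates 1 and 4, against 0.00574% to 0.0153% in the other leaves, and 1.16% in root replicate 2 against 5.08% to 5.22% in the other roots. Male-alone genes held 10.9% in male replicate 5, against 20.5% to 28.8% in the other male libraries, and 0.825% in early female replicate 0, where the other 5 female libraries had 0.0225% to 0.0398%. The part these libraries had in the results below was measured where a value without them is given, and was otherwise not tested.

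In female flower the members covered a wide span of abundance. The median over the 6 female libraries ran from 64.3 to 37676 scaled fragments, with a median of 342 over the members and quartiles of 164 and 895. Per length, the female medians ran from 2.09 to 2623 FPKM (fragments scaled by gene length and library total), with a median of 24.8. The signal was concentrated in few genes: the 10 most abundant members held 48.3% of it in late and 36.3% in early female flower.

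In the other tissues the typical member was at a low level, lowest in leaf. The median member level, as log2(scaled fragments + 1), was 8.35 in female flower, against 3.04 in male flower, 3.05 in root and 1.48 in leaf. Levels and the order of tissues use the values as deposited, whose sum per library differed by tissue. It was 1.08e+07 to 2.57e+07 in male flower, 7.95e+06 to 9.20e+06 in root, 7.89e+06 to 1.44e+07 in leaf and 6.78e+06 to 7.69e+06 in female flower. All 3 other medians were under 10 scaled fragments for 89 members. The median was exactly 0 in male flower for 25 members, in root for 18 and in leaf for 47. At the other end, 25 members had at least 64 scaled fragments in their next-highest tissue, so low there meant low against the female level and not near absence.

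The tissue nearest to female flower was most often root. Root was the next-highest tissue for 102 members, male flower for 76 and leaf for 22, and leaf was the lowest for 125. The gap had a median of 4.31 in log2, with quartiles of 3.73 and 5.53 and a range of 3.21 to 9.45, and it was at least 5 for 68 members. The choice ended inside a continuous range: the last member kept (Zosma3g01120) and the first gene left out (Zosma42g01270) both had a gap of 3.21. Their female medians were 7.89 and 8.88, and the next-highest tissue was leaf at 4.69 for Zosma3g01120 and root at 5.67 for Zosma42g01270.

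**Figure D1:**
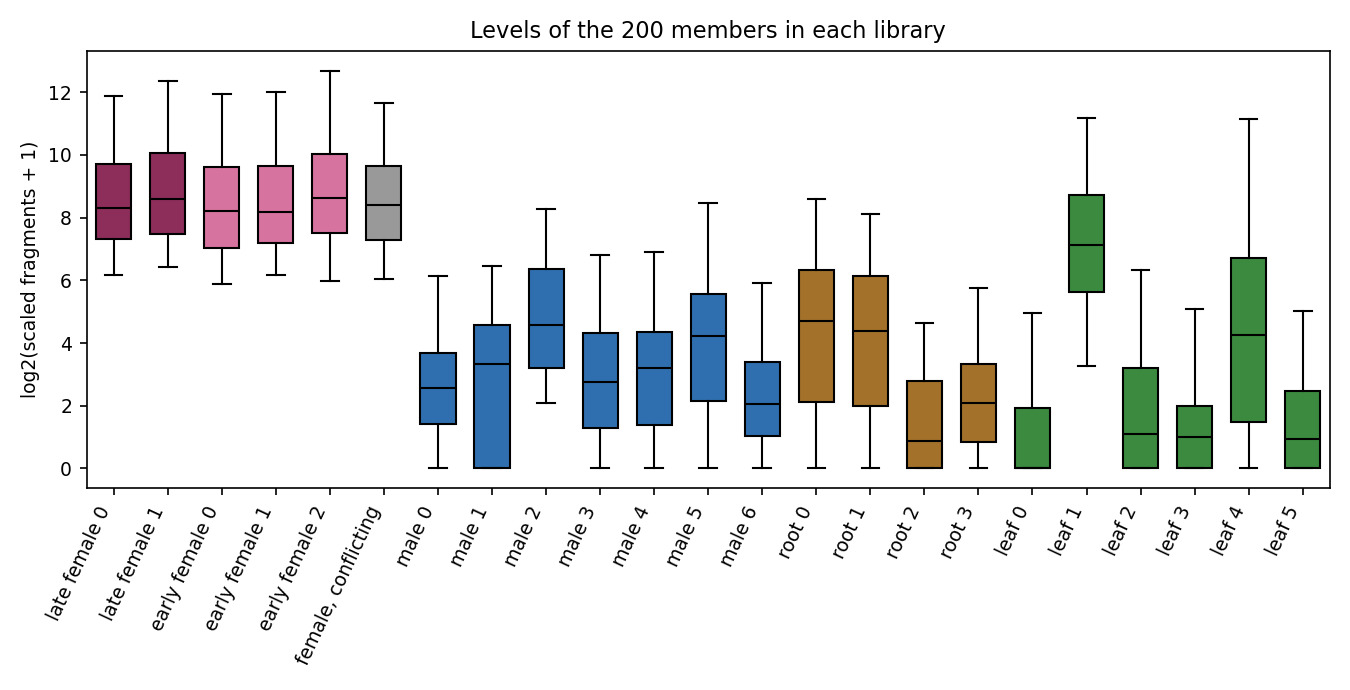
Levels of the 200 members in each of the 23 libraries, as log2(scaled fragments + 1) on the vertical axis, with box for quartiles, line for the median and whiskers from the 5th to the 95th percentile of members. The medians of the 6 female libraries lay between 8.19 and 8.64, leaf replicate 1 reached 7.13, and the other 16 libraries had medians of 0 to 4.70.

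The widest gap belonged to Zosma291g00120. It stood at 5675 and 7035 scaled fragments in late and at 2838, 3107 and 5869 in early female flower, with 4992 in the library of conflicting labels. Male flower had 0, 6.59 and 149 (lowest, median, highest), root had 0.855 to 5.99, and leaf had 0, 1.21 and 4819. The female libraries lay above every male and root library, but leaf replicate 1, at 4819, lay within the female range, while the other leaves had at most 2.70. Zosma48g00740 had the next widest gap. It stood at 11352 and 16517 in late and 2823, 3289.95 and 12528 in early female flower, against 1.57, 16.3 and 737 in male flower, 168, 73.9, 0 and 4.89 in root replicates 0 to 3, and 0, 0.453 and 48.7 in leaf. Its female libraries lay above all others, and its male and leaf maxima were male replicate 2 and leaf replicate 1.

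Zosma342g00050, picked out after its values were seen, was the most abundant member. It stood at 48173 and 58319 scaled fragments in late female flower, at 9001, 13509 and 27180.1 in early female flower, and at 52010.2 in the library of conflicting labels. It alone held 20.4% of the members' signal in late and 6.92% in early female flower. Outside the female flower it was low but measurable, with 130.1 to 3150.1 in male flower, 68.4 to 864 in root and 14.7 to 490.0 in leaf. Both late libraries lay above all 3 early ones, and every female library lay above every other library.

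The members' summed level set the female libraries apart from the others. They held 3.28% and 3.91% of all scaled fragments in late female flower, 2.46%, 2.79% and 4.18% in early female flower, and 3.46% in the library of conflicting labels. The late and early ranges overlapped. The share was 0.0629% ± 0.0553 in male flower (SD, n = 7), 0.113% ± 0.105 in root (SD, n = 4) and 0.396% ± 0.580 in leaf (SD, n = 6). Within leaf, replicate 1 held 1.40% (95% Wilson interval 1.39 to 1.40, counting error only) and replicate 4 held 0.809% (0.804 to 0.814), against 0.0101% to 0.132% in the other 4. Without both, which was decided once the values were known, the leaf mean was 0.0427%. The choice of members used these leaf libraries: with the list made again without the library measured, leaf replicates 1, 4 and 2 held 1.66%, 1.47% and 0.593%, and the other 3 held 0.0102% to 0.0156%.

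**Figure D2:**
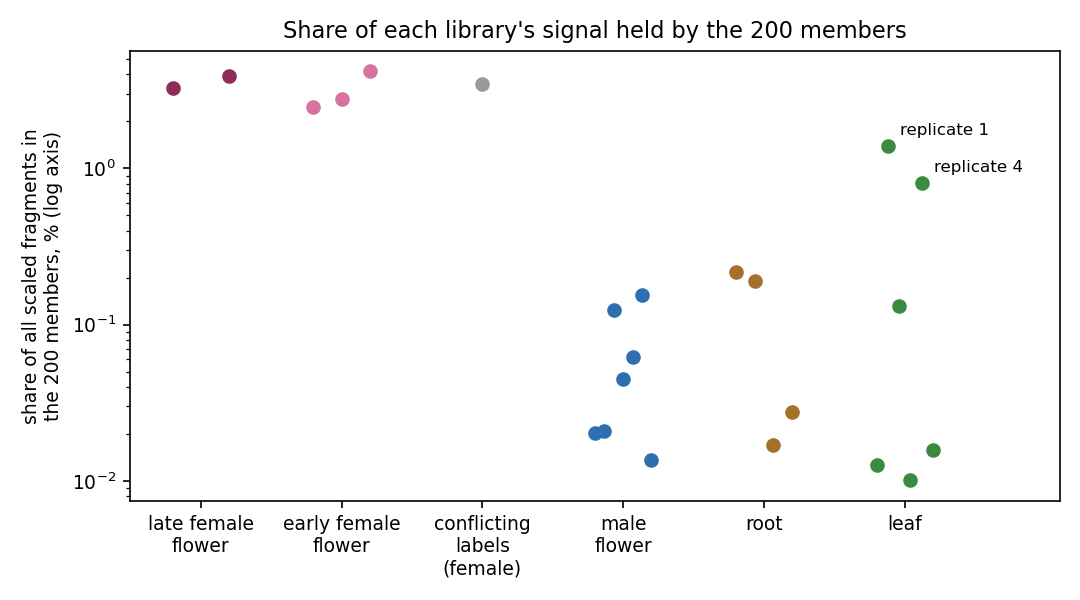
Share of all scaled fragments held by the 200 members, in percent on a log axis, with 1 point per library grouped by tissue and stage. The 6 female libraries lay between 2.46% and 4.18%, leaf replicates 1 and 4 lay next at 1.40% and 0.809%, and all others were at 0.217% or below.

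The description "high in female flower alone" thus held for tissue medians but not in every library. In leaf replicate 1, 92 of the 200 members were within 2-fold of their female median or above it, 83 were 2-fold to 16-fold below and 25 lay further below. In leaf replicate 4 these numbers were 31, 63 and 106. In the other 4 leaf libraries 0 to 3 members came within 2-fold. For 18 members leaf replicate 1 exceeded the highest female library, and for 12 leaf replicate 4 did.

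The members high in these leaf libraries were only partly shared. There were 25 members within 2-fold of the female median in both, 34 that reached it in replicate 1 while lying over 16-fold below in replicate 4, and 3 with the reverse pattern. Of the 92 near the female level in replicate 1, 74 were over 16-fold below it in all 4 of the leaf libraries other than replicates 1 and 4. Leaf replicate 1 was the highest leaf library for 82.0% of members and for 31.3% of all genes tested. Only 5 members had 3 or fewer fragments in it, against 62 in replicate 4 and 132 to 163 in the other leaves.

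**Figure D3:**
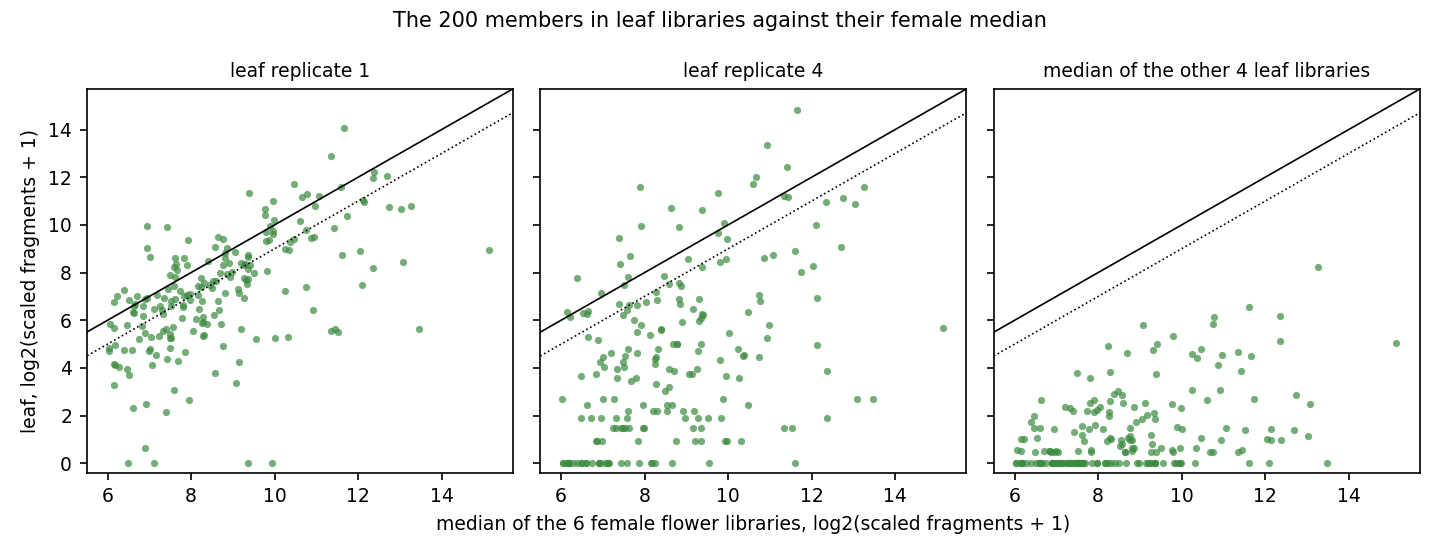
Each of the 200 members by its median in the 6 female libraries (horizontal) and its level in leaf (vertical), both as log2(scaled fragments + 1), for leaf replicate 1, leaf replicate 4 and the median of the other 4 leaf libraries. The solid line marks equal levels and the dotted line 2-fold below, and 92 members lay on or above the dotted line in replicate 1, 31 in replicate 4.

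Root and male libraries also differed among themselves in the members. Root replicates 0 and 1 had member medians of 4.70 and 4.38 in log2, against 0.89 and 2.09 in root replicates 2 and 3. Both lay above both others for 129 members (64.5%, against 32.5% of all genes tested), and below for 11. Male replicate 2 was the highest male library for 103 members (51.5%, against 8.31% of all genes tested). Member by member, however, few reached female levels: 12 and 10 came within 2-fold of the female median in root replicates 0 and 1, none in root replicates 2 and 3, and 0 to 6 in the male libraries.

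Taking every library singly, 110 members had all 6 female libraries above all 17 others. The count was 155 without leaf replicate 1, 111 without leaf replicate 4, 177 without both, and 186 when root replicates 0 and 1 were left out as well. These counts follow the choice of members and carry no test.

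Within the female flower the members varied more than most genes. The range over the 6 female libraries had a median of 1.48 in log2 over the members, against 0.78 over the 11501 genes with a female median of at least 64. The range was under 2-fold for 42 members (21.0%), against 66.2% of those genes. Early replicate 2 was the highest female library for 74 members and the lowest for 39, so it lay at an extreme for more than any other. It was at least 2-fold above both other early libraries for 36 members and at least 2-fold below both for 6. Late replicate 1 was the highest for 61 and the lowest for 11, and early replicate 0 was the highest for 13 and the lowest for 49.

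The library of conflicting labels lay nearer to the late mean than to the early mean for 161 members (80.5%, against 66.4% of the genes with a female median of at least 64). The choice had placed this library with the late ones, and its stage was taken from neither label.

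Late and early female flower were compared with limma over all groups, on 17423 genes with Benjamini-Hochberg adjustment, calling a gene that changed at least 2-fold with an adjusted p under 0.05. The choice of members bounded this difference in size but not its direction. None of the 200 members was called, against 0.0746% of all genes tested (0.0287% higher, 0.0459% lower), and none reached an unadjusted p under 0.05, against 4.39% of all genes (limma). The median log2 fold change was 0.13, with quartiles of -0.59 and 0.72, against 0.03 over all genes, and 112 members had a value above 0 and 88 below. The median standard error was 1.69 for members and 0.750 for all genes, so a 4-fold change, 2 in log2, was little more than 1 standard error of a typical member. The largest difference of any member was 1.98 in log2. For a typical member the absence of a call was thus close to fixed by the choice, and it is no result about stage. This standard error came from a spread pooled over all groups, in which the members' spread differed by tissue: their median SD in log2 was 0.42 in early female flower, 1.47 in male flower, 1.38 in root and 2.63 in leaf, or 0.64 in leaf without replicates 1 and 4.

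Both late libraries lay above all 3 early ones for 54 members (27.0%, against 24.2% of all genes tested) and below them for 38 (19.0%, against 17.4%). These shares were near those of all genes.

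Fitted with the female libraries alone, an alternative with a spread of its own, limma called 13 members, 9 higher and 4 lower in late than in early female flower. Over all genes that fit called 3.15%, 1.63% higher and 1.52% lower. With 1 library left out, that fit called no member without late replicate 0, late replicate 1 or early replicate 1, 4 without early replicate 0 and 19 without early replicate 2. Each of the 13 members kept its direction in all 5 of these fits. This was certain beforehand, because the late and early libraries of all 13 did not overlap. The 5 fits rest on 4 libraries each, and where 1 late library is left it is assumed to vary like the early ones. The share of all genes called in each fit is not set beside these counts, so they are not a result about the members.

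Of the 13 called members, the 2 with the largest fold in each direction are given here, picked after their values were seen. Some members that were not called had larger differences, up to 1.91 in log2 for Zosma8g00290. Zosma26g00440 had 600.1 and 636 scaled fragments in late and 240.2, 222 and 142 in early female flower, and Zosma89g01150 had 368 and 452 in late and 131, 169.7 and 110.5 in early. For both genes the late and early libraries did not overlap, and the library of conflicting labels, at 804 and 552, lay above the late ones. Their log2 fold changes in the fit of female libraries alone were 1.65 (SE 0.258, adjusted p = 0.0391, limma) and 1.59 (SE 0.234, adjusted p = 0.0367, limma). With 1 library left out they ran from 1.42 to 1.80 for Zosma26g00440 and from 1.44 to 1.75 for Zosma89g01150.

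In the other direction, Zosma91g00610 had 2025 and 2702 scaled fragments in late and 7422, 8084 and 13004 in early female flower. Zosma279g00020 had 174 and 171 in late and 669.5, 803 and 565 in early female flower. Again the stages did not overlap, and the library of conflicting labels stood at 2293 for Zosma91g00610, within the late range, and at 132 for Zosma279g00020, below it. Their log2 fold changes were -1.98 (SE 0.307, adjusted p = 0.0386, limma) and -1.96 (SE 0.188, adjusted p = 0.0172, limma), close to the bound that the choice of members allowed. With 1 library left out they ran from -2.18 to -1.73 for Zosma91g00610 and from -2.08 to -1.83 for Zosma279g00020.

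**Figure D4:**
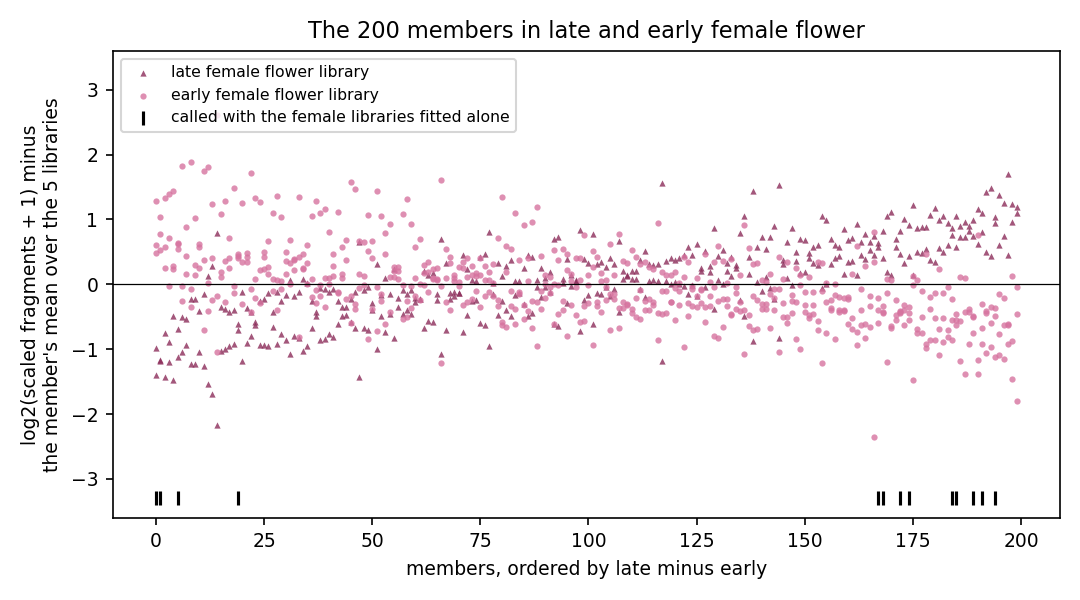
The 200 members ordered by late minus early, with each late (triangle) and early (circle) female library as its difference in log2 from the member's mean over the 5 libraries. Black ticks mark the 13 members called with the female libraries fitted alone, 4 lower at the left and 9 higher at the right, and late and early points overlap through the middle of the order.

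The tissues in which the members were low were compared with each other in the same limma fit. The choice of members limits the size of these differences, since the gap to female flower had to be the widest, but not their direction. The 3 contrasts share libraries and are given side by side. All 200 members passed the filter on low values, some of them through female flower, so the shares called are no like-for-like comparison with all genes. Of the 200, 160 passed it in root and leaf libraries, 171 in male flower and leaf and 166 in male flower and root, and fits of these groups alone called 6, 12 and 26 of them. The share of all genes called in those fits is not set beside these counts, so they are not a result about the members. For root against leaf both medians were under 10 scaled fragments for 105 members, for male flower against leaf for 121 and for male flower against root for 95.

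Between root and leaf, limma called 12 members, 3 higher and 9 lower in root. This was 6.0% of members, against 28.8% of all genes tested, of which 17.6% were higher and 11.2% lower. The median log2 fold change was 0.37 for members and 0.18 for all genes, and the median standard error was 1.20 for members and 0.530 for all genes. The count and its split moved with the libraries kept. It was 45 without leaf replicate 1 (36 higher, 9 lower, against 37.6% of all genes) and 76 without leaf replicates 1 and 4 (69 higher, 7 lower, against 42.3% of all genes, 28.1% higher and 14.2% lower), whereas it was 6 without root replicate 1, all lower (22.3% of all genes). The split turned to 11 higher and 9 lower without root replicate 2 (32.1% of all genes) and to 8 higher and 6 lower without root replicate 3 (25.3%). Under quantile normalization all 18 called were lower in root, and the median over all genes moved to -0.02. With equal summed signal that median moved to 0.44, with 4 members higher and 8 lower. For these scalings the shares of all genes called are not given, so the splits are not a result about the members. Without root replicates 0 and 1 there were 6, all lower in root, against 15.4% of all genes (7.22% higher, 8.13% lower).

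Zosma26g00330 was the member with the largest such difference. Root replicates 0 to 3 had 0, 0, 0.855 and 1.63 scaled fragments, 3 counted fragments in all, against 36.8, 100.2 and 884 (lowest, median, highest) in leaf. All root libraries lay below all leaf libraries, and female flower stood higher than either, at 1139.6 and 1613 in late and 2003, 1833 and 3967 in early. Its log2 fold change was -6.55 (SE 0.850, adjusted p = 4.70e-06, limma). The leaf mean was 447 times the root mean (counting interval 153 to 2166), and 251 times without leaf replicate 1.

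Zosma264g00270 was at 0 in all 4 root libraries. In leaf it had 1.42, 23.8 and 141 scaled fragments, so the tissues did not overlap, although leaf replicates 0 and 3 were at 2 fragments or fewer. In female flower it had 401 and 376 in late and 852, 833 and 811 in early. Against a floor of 3 fragments per library it was at least 20.1-fold lower in root than in leaf, a bound that was 12.0 without leaf replicate 1. Leaf replicates 1 and 4 had the highest values, 141 and 87.3, against 1.42 to 43.0 in the other leaves. The bound without both was not measured. The log2 fold change was -4.07 (SE 0.997, adjusted p = 0.00366, limma). None of the 3 members called higher in root had root libraries that all lay above the leaf libraries.

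Between male flower and leaf, limma called 21 members, 16 higher and 5 lower in male flower. This was 10.5% of members, against 56.1% of all genes tested (31.7% higher, 24.5% lower). The median log2 fold change was 0.33 for members and 0.19 for all genes. The count was 50 without leaf replicate 1 (46 higher, 4 lower, against 58.8% of all genes), 13 without leaf replicate 2 (8 higher, 5 lower, against 54.5%), and 90 without leaf replicates 1 and 4 (87 higher, 3 lower, against 60.8% of all genes, 36% higher and 24.8% lower). Without leaf replicate 3 the split turned to 8 higher and 10 lower (54.8% of all genes). It also depended on the scaling: quantile normalization gave 7 higher and 28 lower, and equal summed signal gave 7 higher and 8 lower, while the median over all genes moved to -0.16 and -0.38. Shares of all genes called under these scalings are not given, so the splits are not a result about the members.

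Zosma542g00020 was the called member whose male and leaf libraries did not overlap. It had 6.59, 19.6 and 29.0 scaled fragments in male flower (lowest, median, highest), against 0 in 5 leaf libraries and 0.900, which is 1 fragment, in leaf replicate 4. Root was at 0 in 3 libraries and at 2.00 in replicate 0. In female flower it stood at 278 and 1869.6 in late and at 721, 590.4 and 461 in early, so the late libraries lay on both sides of the early ones. Its log2 fold change between male flower and leaf was 4.01 (SE 0.462, adjusted p = 2.27e-07, limma), and the ratio of means was 126 with a counting interval of 22.6 to 4979.

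Between male flower and root, limma called 17 members, 15 higher and 2 lower in male flower. This was 8.50% of members, against 51.9% of all genes tested (25.9% higher, 26% lower). The median log2 fold change was -0.02 for members and -0.05 for all genes. Without root replicates 0 and 1 there were 14, all higher in male flower, against 46.6% of all genes (25.1% higher, 21.5% lower). Without root replicate 2 the split was 11 higher and 12 lower, against 50.5% of all genes. Quantile normalization gave 17 higher and 5 lower, with the median over all genes at -0.12. With libraries scaled to equal summed signal the split was 8 higher and 16 lower, and the median over all genes moved to -0.96. As the shares of all genes called under these scalings are not given, the splits are not a result about the members.

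Zosma2g00840 had 28.2, 39.5 and 437 scaled fragments in male flower, against 1.33, 1.49, 0 and 8.14 in root replicates 0 to 3. Zosma7g00950 had 27.1, 49.2 and 153 in male flower, against 7.98, 5.23, 0 and 1.63 in root. The tissues overlapped for neither gene, and male replicate 5 held the highest value of both genes. Their log2 fold changes were 4.55 (SE 1.32, adjusted p = 0.00598, limma) and 4.02 (SE 1.28, adjusted p = 0.0111, limma). In female flower Zosma2g00840 had 2219 and 1249 in late and 2880.3, 1365 and 3592 in early, and Zosma7g00950 had 281 and 1118 in late and 776, 1212 and 2163 in early, with the stages overlapping for both genes. In leaf replicate 1 they stood at 716 and 667, against at most 36.9 and 5.40 in the other leaves.

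Over the 3 contrasts 33 members were called at least once, of which 15 were called in exactly 2 and 1 in all 3. These counts were not made over all genes. Of those, 28.8% were called for root against leaf, 56.1% for male flower against leaf and 51.9% for male flower against root. No test compared the members' shares called with those of all genes.

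**Figure D5:**
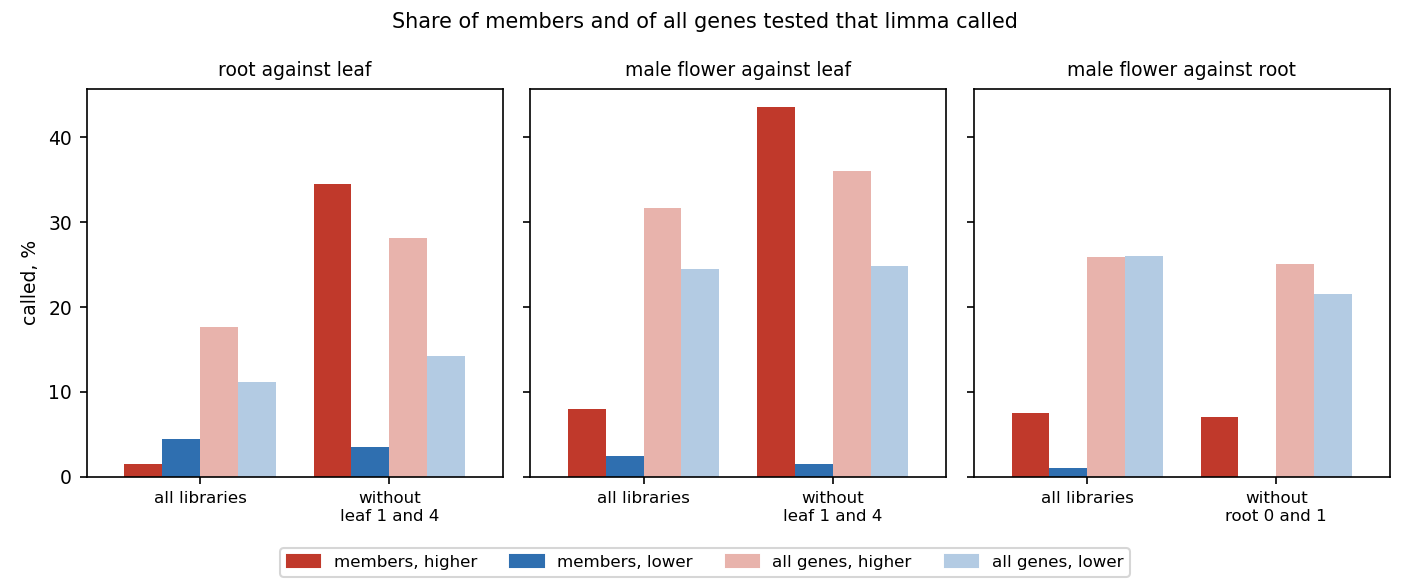
Percent of the 200 members and of all genes tested that limma called higher or lower in root against leaf, male flower against leaf and male flower against root, with all libraries and with the named libraries left out. With all libraries, members were called in 6.0%, 10.5% and 8.50% of cases and all genes in 28.8%, 56.1% and 51.9%. These shares are no like-for-like comparison, because some members passed the filter through female flower and the choice limited their differences. The bars for members higher than leaf grow when leaf replicates 1 and 4 are left out.

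The choice did not use gene length or identifier. The length implied by the ratio of scaled fragments to FPKM, relative to the median over all genes tested, had a median of 0.96 over the members, with quartiles of 0.63 and 1.33. The quartiles over all genes tested were 0.61 and 1.496, and the 14626 genes with a tissue median of at least 64 had a median of 1.08.

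Few members had neighbouring identifiers. Numbers after the g of an identifier rise in steps of 10, and 5 members had another member within 1 step, while 17 had one within 50. By the same count, 16 of the top 200 male-alone genes, 18 of the root-alone genes and 19 of the leaf-alone genes had one within 1 step. Within 50 the counts were 24 for male-alone, 36 for root-alone and 34 for leaf-alone genes. Whether neighbouring identifiers mean neighbouring genes was not tested.

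The 5 members, picked out after their identifiers were seen, formed a pair and a run of 3. In the run, Zosma30g01100 had 104 and 108 scaled fragments in late and 119, 138 and 359 in early female flower. Zosma30g01110 had 65.3 and 50.8 in late and 72.1, 71.2 and 169.6 in early, and Zosma30g01120 had 64.02 and 47.9 in late and 66.7, 81.7 and 159.9 in early. All 3 were highest in early replicate 2, and all had leaf replicate 1 as their highest leaf library, at 95.7, 50.4 and 56.2. In root replicates 0 and 1 they stood at 11.9 to 39.2, and in root replicates 2 and 3 at no more than 1.71. Whether these genes are near-identical copies that share reads was not tested, and if they are, their separate values are uncertain.

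The pair, Zosma27g00650 and Zosma27g00660, was not called between the stages for either gene. Zosma27g00650 had 109 and 168 scaled fragments in late and 222, 249 and 251 in early female flower, with no overlap between the stages. Zosma27g00660 had 345 and 561 in late and 396, 514 and 635 in early, with overlap. Both were highest among the leaf libraries in leaf replicate 1, at 171 and 452.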

How the data were processed

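Per the labels, messenger RNA isolated on oligo(dT) beads was sequenced as paired ends of 100 bases. TopHat2 2.0.12, Cuffnorm 2.2.1 and also Cuffdiff 2.2.1 are named in the submitters' processing notes, with no role. Genome build, annotation and handling of strand were not given in the sources used here. The table deposited by the authors as counts holds a scaled signal. In each library 99.6% to 99.8% of the values above 0 were whole multiples of 1 step, within 0.01, from which depth, floors and counting intervals (95%) were taken. The FPKM table, also deposited by the authors, served as an alternative and for levels per length.

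Members, lists and tests were chosen with earlier results of these data known. Genes that reached 10 in 2 libraries or more were fitted as log2(value + 1) with limma 3.58.1 in R 4.3.3, in 1 model of 5 groups and 22 libraries, with trend and robust settings. All 200 members passed that filter, as the choice required. Fold changes on this scale understate those of low genes. As the values were not all whole, the count tests planned as alternatives were not run. Genes named are the 2 with the widest gap and, per contrast and direction, up to 2 called members of largest fold whose groups do not overlap. Others are said to be picked after their values were seen. Tables and plots were made in Python 3.11.15 with pandas 2.3.3 and numpy 2.4.6, matplotlib 3.10.9 and scipy 1.17.1.

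Tested on simulated data with known changes, the fit recovered 34.3% of 4-fold changes for late against early female flower (17074 genes), 59.7% for root against leaf (17044), 56.7% for male flower against leaf (17076) and 62.7% for male flower against root (17078). The changed genes were drawn from all genes above a set mean level, with the same mean in every tissue before the change. The members are low outside female flower and had larger standard errors than all genes. They were not simulated as a set, so recovery for them was not measured.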

Additional observations from a re-analysis of the deposited data

Results flagged for a closer look

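In male flower, root and leaf, the levels of the 17 members named and the members' share of signal, 54 groups of values in all, were examined for a library far from the others of its group. In 26 there was one, all of them levels of single members. The nominal rate is about 1 in 20. Members rose together in the same libraries, so the flags are not independent and chance was not tested. Most flags were leaf replicate 1 and male replicate 2.

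Leaf replicate 1 lay above the other leaves for Zosma291g00120 (4819 scaled fragments), Zosma48g00740 (48.7), Zosma342g00050 (490.0), Zosma91g00610 (2013), Zosma2g00840 (716), Zosma27g00660 (452), Zosma89g01150 (138), Zosma27g00650 (171), Zosma30g01110 (50.4), Zosma7g00950 (667), Zosma30g01120 (56.2) and Zosma30g01100 (95.7). Leaf replicate 4 lay above the other leaves for Zosma279g00020 (114) and, by 1 fragment, Zosma542g00020 (0.900).

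Male replicate 2 lay above the other male libraries for Zosma291g00120 (149), Zosma48g00740 (737), Zosma342g00050 (3150.1), Zosma264g00270 (63.8), Zosma279g00020 (35.96), Zosma89g01150 (289) and Zosma30g01120 (6.54). Male replicate 5 did so for Zosma91g00610 (885), Zosma2g00840 (437) and Zosma7g00950 (153), and male replicate 1 for Zosma30g01100 (36.1). Root replicate 0 lay above the other roots for Zosma542g00020 (2.00).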

How the results depend on the processing

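The number of members called is given first for the reported fit. For late against early female flower it was 0, and 1 with a pseudocount of 10, 5 with library weights and 13 with the female groups alone. For root against leaf it was 12, and 147 with library weights (136 higher), 6 with only these groups, 76 without leaf replicates 1 and 4, and 6 without root replicates 0 and 1. For male flower against leaf it was 21, and 8 with a pseudocount of 10, 35 with quantile normalization, 6 in FPKM, 110 with weights, 12 with only these groups, and 90 without leaf replicates 1 and 4. For male flower against root it was 17, and 10 with a pseudocount of 10, 10 in FPKM, 129 with weights (42 higher, 87 lower), and 26 with only these groups. The weights did not reach their convergence tolerance. The causes of these shifts were not tested. The share of all genes called also moved with the libraries kept, as given above. Where that share is not printed with a count, here or below, the count is not a result about the members.

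Leaving out each library in turn gave 0 to 0, 6 to 45, 13 to 50 and 12 to 23 calls in these 4 comparisons, and 0 to 19 with the female groups alone. With the replicate number as a block the calls were 0, 10, 19 and 17. The deviations of same-numbered libraries correlated at r over 0.1 in 11 of 31 pairs, against 36 of 154 pairs of different numbers, with medians of 0.03 and -0.00. As not every pair exceeded 0.1 and the labels name no pairing, the numbers were not taken to pair the samples. The 5 members named for contrasts between low tissues kept their direction and call under every alternative run, with adjusted p of at most 0.0486 (limma). They were chosen with groups that do not overlap, so leaving a library out could not turn their direction.

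The rule was met by 403 genes, 89 in FPKM and 689 with equal summed signal, and by 245 to 543 with 1 library left out. Of the 89 in FPKM, 51 were among the 200 members. With 1 library left out, 140 to 196 of the members were kept. The members' mean share in late female flower, 3.599%, was 4.13% in FPKM and 3.09% with the list made again without the library measured. With 1 library left out the mean share was 3.28% to 3.91% in late and 2.63% to 3.49% in early female flower, 0.0476% to 0.0711% in male flower, 0.0783% to 0.145% in root and 0.196% to 0.473% in leaf.

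Depth limits the low tissues most, where many members rest on 3 fragments or fewer, 31 to 136 per male library and 40 to 134 per root library.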
